A study of Rattus norvegicus with 6 samples.

Results

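The fragments described here came from the nuclear transfer RNAs (tRNAs) for asparagine (Asn), aspartate (Asp), isoleucine (Ile), phenylalanine (Phe), threonine (Thr) and tryptophan (Trp), which together gave 0.386% to 1.12% of the listed tRNA fragment CPM of a rat hippocampus library. They were chosen by name, as every deposited fragment whose identifier carries 1 of these 6 amino acids and no mitochondrial mark. The rule itself used no measured value, but the 6 amino acids were picked with earlier results of these data known. The rule gave 60 of the 615 listed fragments. Of these, 18 came from Thr, 17 from Asp, 8 from Phe, 7 from Ile, 6 from Asn and 4 from Trp tRNAs. The other 420 nuclear fragments served for comparison, and the 135 mitochondrial fragments, 30 of them from tRNAs for the same 6 amino acids, were left aside. Small RNA libraries were made from total RNA of the hippocampus, in Sprague-Dawley rats that were 6 to 8 weeks old. The 3 control rats had received saline and the 3 treated rats nicotine, the addictive alkaloid of tobacco, with 1 library per numbered rat. The labels state no dose, route or duration. The whole tissue was used, so fewer cells of a type and less fragment RNA per cell cannot be told apart.

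A tRNA gene is transcribed by RNA polymerase III with a leader and a trailer. The leader is removed by RNase P and the trailer by RNase Z, and the tail CCA is then added to the 3' end of the mature tRNA. Released trailers, which end in a run of U, are called tRF-1. Cuts in the mature tRNA give 5' fragments (tRF-5a, tRF-5b and tRF-5c in order of length), 3' fragments that keep the CCA tail (tRF-3a and the longer tRF-3b) and internal fragments (tRF-2). A cut in the anticodon loop by stress nucleases such as angiogenin gives long fragments, the 5' one of which is called tiRNA-5. Fragments of the tRF-3 kind can be loaded into Argonaute proteins, and tiRNA-5 can restrain translation. In mouse brain, loss of the tRNA methyltransferase NSUN2 leaves tRNAs open to angiogenin and lets 5' fragments accumulate. Among the 6 parents, Asn and Asp tRNAs carry queuosine, a modified guanosine, at the wobble base. In mouse, Asp tRNA is also methylated in the anticodon loop by TRDMT1 (DNMT2). Phe tRNA carries the bulky base wybutosine beside the anticodon, and the wobble adenosine of Ile-AAT and Thr-AGT is converted to inosine.

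The 60 fragments were rare, and this set the precision of every value. The values are CPM, read counts scaled by the library total, and 1 read was worth 2.67, 6.48 and 4.85 CPM after saline and 11.0, 8.18 and 7.77 CPM after nicotine. The totals behind these were 154414 to 374763 reads in saline and 90828 to 128694 in nicotine, so all nicotine libraries were shallower, and depth and treatment cannot be told apart. Reads of the 60 fragments numbered 994, 485 and 767 after saline and 497, 392 and 590 after nicotine (libraries 1, 2 and 3 in that order, here and throughout). Over the 6 libraries together a fragment had 3 to 531 reads (median 26.5), and 24 of the 60 had at most 20. A read was found in every library for 36 of them, and a count of 0 allows a level of up to 3 reads, which was 8.01 CPM in saline 1 and 33.0 CPM in nicotine 1. The list held only fragments that had reached at least 21.3 CPM in some library. Nicotine 1 had the highest CPM of the 6 libraries for 33 of the 60 fragments (55.0%), against 39.5% of all 615 fragments, and its part in the results below is given by values without it. Fragment sequences were not used here.

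Together the 60 fragments had 2652, 3141 and 3719 CPM after saline and 5472, 3206 and 4585 CPM after nicotine. Nicotine 2 lay between saline 2 and saline 3, so the groups overlapped. Means were 3171 CPM ± 534 after saline and 4421 CPM ± 1142 after nicotine (SD, 3 libraries each), a ratio of 1.39 (exact two-sided permutation p = 0.2, where 3 against 3 libraries cannot go below 0.1). The difference of 1249.8 CPM went to 724 CPM without nicotine 1. As a share of all listed fragments they took 0.536% ± 0.161 after saline and 0.882% ± 0.289 after nicotine (SD, 3 libraries each), with overlap (exact permutation p = 0.2).

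By amino acid, Thr and Asp fragments were the most abundant of the 6 in every library, and Trp fragments the rarest. Thr fragments summed to 865, 1153 and 1251 CPM after saline and 1508, 1120.4 and 1647 CPM after nicotine. Asp fragments summed to 648, 946 and 960.1 CPM after saline and 1156, 932 and 1359.8 CPM after nicotine. Saline 1 was the lowest and nicotine 3 the highest library for both, and nicotine 2 lay within the saline range. Thr tRNAs were listed with 3 anticodons, 11 fragments of Thr-TGT, 5 of Thr-AGT and 2 of Thr-CGT. Phe fragments summed to 555, 499 and 742 CPM after saline and 914, 442 and 847 CPM after nicotine. Nicotine 2 was the lowest of all 6 for Phe. Ile fragments, 6 of them from Ile-AAT and 1 from Ile-TAT, summed to 219, 259 and 373 CPM after saline and 903, 269.9 and 272 CPM after nicotine. Nicotine 1 stood far above the other 5 libraries, and the remaining nicotine libraries lay inside the saline range. Asn fragments summed to 264, 155 and 281 CPM after saline and 584, 269.9 and 357 CPM after nicotine. Trp fragments summed to 101, 129.5 and 112 CPM after saline and 407, 172 and 101 CPM after nicotine, with nicotine 3 just below the lowest saline library. Phe, Ile, Asn and Trp were each highest in nicotine 1.

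**Figure D1:**
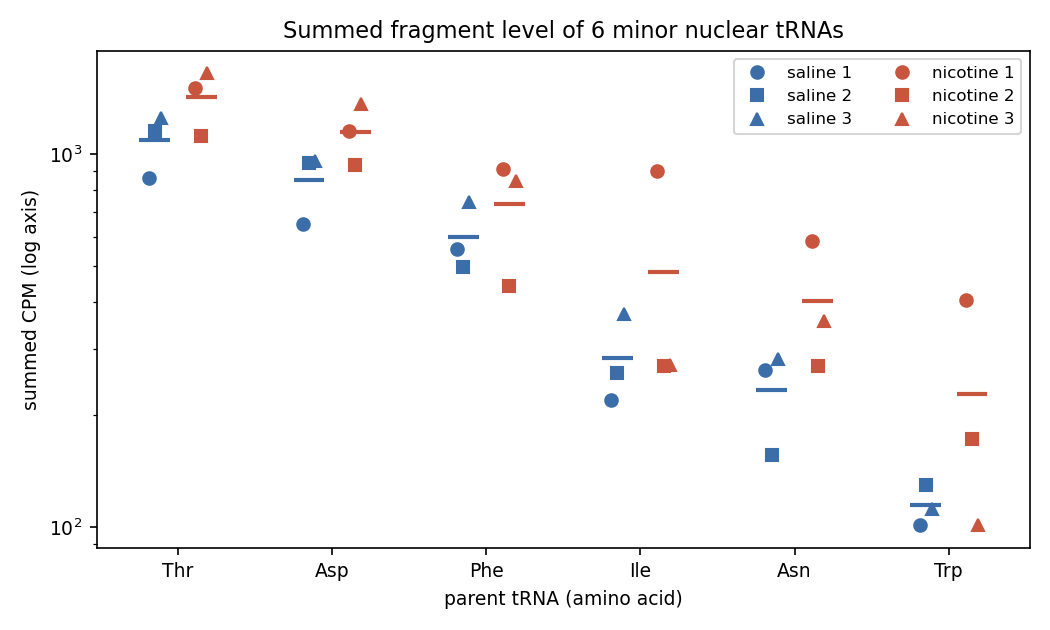
Summed CPM of the fragments of each parent tRNA (log axis) in each library, saline in blue and nicotine in red, with symbols for the rat numbers and bars for group means (n = 3). The groups overlap for all 6 amino acids, and nicotine 1 stands highest for Phe, Ile, Asn and Trp, with 903 CPM for Ile.

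None of the 6 sums differed beyond the spread of the libraries. The ratios of nicotine to saline means were 1.99 for Trp, 1.73 for Asn, 1.70 for Ile, 1.35 for Asp, 1.31 for Thr and 1.23 for Phe. The exact two-sided permutation p ran from 0.2 for Asn to 0.5 for Ile and Phe, with adjusted p of 0.485 to 0.618 over the 21 amino acid names of nuclear tRNAs, initiator methionine counted apart. Without nicotine 1 the difference in Ile went from 198 to -12.8 CPM and so changed sign. Under the same omission that in Trp went from 113 to 22.2 CPM and that in Asn from 170.0 to 80.0 CPM. As shares of listed CPM, Trp alone had no overlap, with 0.0191% ± 0.00375 after saline and 0.0448% ± 0.0334 after nicotine (SD, 3 libraries each). The exact permutation p was 0.1 and the adjusted p 0.3, and 0.615 for the share of listed CPM without glycine. The closest values of the share of all listed CPM were 0.0213% in saline 2 and 0.0214% in nicotine 3.

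Taken as a pool, the 60 fragments differed from the other nuclear fragments in their kinds. The rule by name did not use the kinds, but the amino acids were picked with earlier results known, so the p-values here are descriptive. CCA-ended 3' fragments of 17 to 18 nt (tRF-3a) took 43.8% ± 5.35 of their CPM and trailers (tRF-1) 25.2% ± 4.83 (SD over the 6 libraries). Among the other nuclear fragments the 5' fragments of 28 to 32 nt (tRF-5c) dominated instead, with 82.6% ± 3.997, against 4.44% ± 1.07 for the 6 parents (SD, n = 6). The difference in tRF-5c was -78.2 percentage points ± 4.06 and negative in 6 of 6 libraries. The tRF-3a share was higher by 40.7 points ± 4.84 and the tRF-1 share by 20.1 points ± 3.95, in 6 of 6 libraries each. Fragments of 22 to 24 nt from the 5' end (tRF-5b) were higher by 14.7 points and internal fragments (tRF-2) by 2.77, and tiRNA-5 differed by -5.62. All 8 kinds gave the smallest p of an exact two-sided paired sign permutation test over 6 libraries, 0.0312, with the same value after adjustment over the kinds. The tRF-5b difference rested on the 23 nt Asp fragment described below and went to 0.586 points without it (exact permutation test, adjusted p = 0.125). The shares sum to a fixed whole, so the kinds are not independent.

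**Figure D2:**
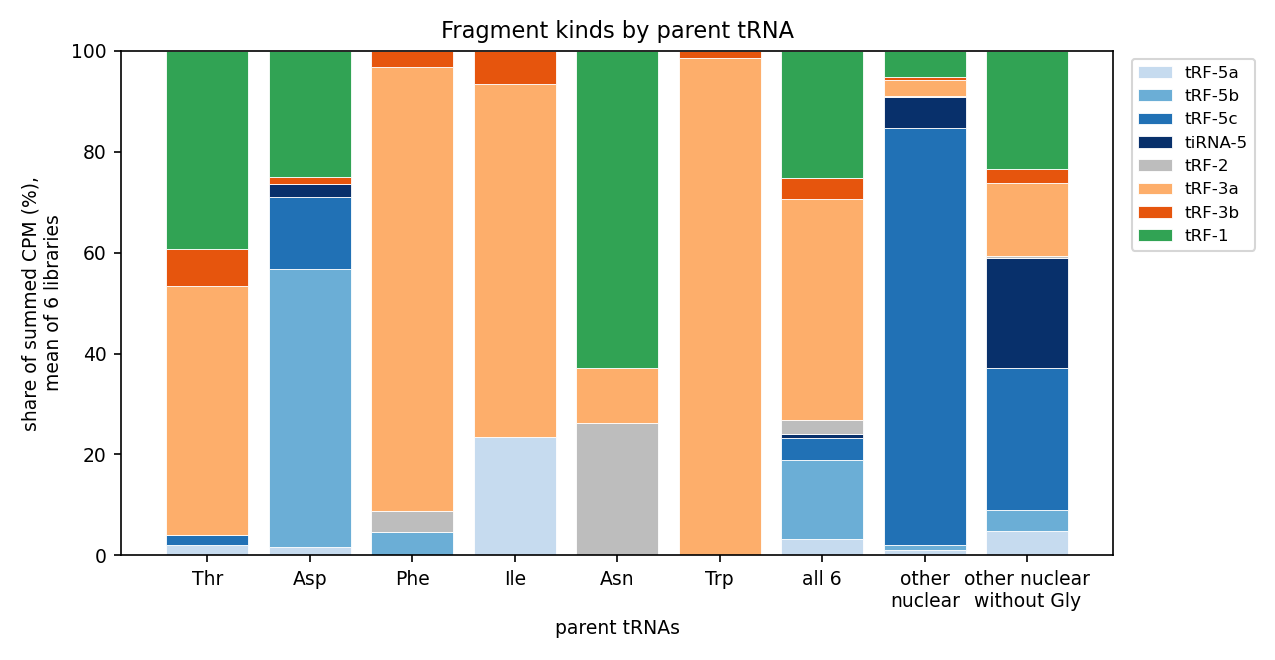
Share of summed CPM (%) taken by each fragment kind, as the mean of the 6 libraries, for each of the 6 parents, for the 6 together, for the other nuclear fragments and for those without glycine. Orange marks CCA-ended fragments, green trailers and blue 5' fragments. Orange fills most of the bars of Phe, Ile and Trp, and dark blue the bar of the other nuclear fragments.

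Glycine tRNA fragments held 73.8% to 85.7% of the CPM of the other nuclear set, so the comparison was repeated without them. The tRF-3a share of the remaining nuclear fragments was 14.4% ± 4.399, and that of the 6 parents was still higher by 29.4 points ± 3.63 in 6 of 6 libraries. The tRF-5b and tRF-2 shares were higher by 11.4 and 2.50 points in 6 of 6, and the tRF-5c and tiRNA-5 shares differed by -23.8 and -21.2 points, lower in 6 of 6. These 5 kinds had an exact permutation p of 0.0312 and an adjusted p of 0.05, at the threshold and not past it. On average the 23 nt Asp fragment held 490 of the 522 CPM of tRF-5b of the 6 parents after saline. After nicotine it held 562 of 629 CPM. The tRF-5b comparison without both this fragment and glycine was not made. The excess of trailers shrank to 1.77 points ± 4.35 (exact permutation p = 0.406). For tRF-5a the sign turned, to -1.42 points (exact permutation p = 0.0938). Counted by names rather than reads, tRF-3a made up 16 of the 60 fragments and 74 of the other 420, tRF-1 17 and 92, and tRF-5c 7 and 80. For tRF-5b the numbers were 4 and 33, for tiRNA-5 1 and 27, and for tRF-2 4 and 8.

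Each parent had its own mix. Trp tRNA was listed by CCA-ended fragments alone, and tRF-3a took 98.6% ± 3.31 of its CPM (SD, n = 6 libraries here and for the next shares). Phe was much the same, with 88.0% ± 4.55 in tRF-3a. Ile divided into 69.8% ± 8.65 tRF-3a and 23.5% ± 8.91 tRF-5a, with no trailer listed. Thr held 49.3% ± 8.85 tRF-3a and 39.3% ± 9.24 trailers. Asn held 62.9% ± 9.59 trailers and 26.3% ± 6.35 internal fragments, the largest internal share of the 6 in every library, and no 5' fragment. Asp stood apart with 55.2% ± 5.43 tRF-5b, 25.1% ± 6.39 trailers, 14.3% ± 3.72 tRF-5c and no tRF-3a, and it supplied the single tiRNA-5. A kind not listed may still have been present below the level of the list.

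Between saline and nicotine the mix of kinds within the 6 parents overlapped for all 8 kinds. The tRF-3a share was 47.2%, 40.2% and 43.0% after saline and 52.1%, 43.6% and 36.8% after nicotine. Nicotine 1 and nicotine 3 thus lay at opposite ends, with 95% Wilson intervals of 47.7 to 56.5 and 33.0 to 40.7, which cover counting error only. Trailers had these 2 libraries at the reverse ends, with 21.5%, 24.7% and 28.8% in saline and 19.9%, 23.5% and 32.9% in nicotine. The exact permutation p was 0.2 or more for each kind (adjusted p = 0.8 or more over 8 kinds). In CPM, tRF-5c of the 6 parents had 133, 142 and 87.3 CPM after saline and 253, 172 and 218 CPM after nicotine. All nicotine values lay above all saline values, as for no other of the 8 kinds in CPM (exact permutation p = 0.1, adjusted p = 0.533 over the 8). Of these, tRF-1:28-Asp-GTC-2-M2, tRF-1:29-Asp-GTC-2-M2, tRF-1:30-Thr-TGT-2 and tRF-1:32-Thr-TGT-2 reached the 21.3 CPM of the list in nicotine alone. The list itself thus favours higher values in nicotine for tRF-5c.

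The most abundant single CCA-ended fragment was from Phe, while summed over names the tRF-3a of Thr (502 and 723 CPM on average after saline and nicotine) and of Phe (534 and 634 CPM) were close. The 17 nt form of Phe, tRF-60:76-Phe-GAA-1-M3, had 392, 291 and 499 CPM after saline and 539, 343 and 451 CPM after nicotine. The groups overlapped, with a log2 fold change of 0.18 (SE 0.38, limma adjusted p = 0.922). The 18 nt form, tRF-59:76-Phe-GAA-1-M3, starts 1 base earlier and had 128, 110.1 and 165 CPM after saline and 209, 49.1 and 264 CPM after nicotine. Nicotine 2 was the lowest and nicotine 3 the highest of the 6 libraries, and the log2 fold change was 0.077 (SE 0.50). The 22 nt form, tRF-55:76-Phe-GAA-1-M3, was far rarer, with 18.7, 25.9 and 29.1 CPM after saline and 0, 16.4 and 31.1 CPM after nicotine. Nicotine 1 had no read of it and nicotine 3 had the highest value. The log2 fold change of -1.61 (SE 1.13, limma adjusted p = 0.752) went to -0.093 without nicotine 1.

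Thr-TGT gave a 17 and 18 nt pair as well. The 17 nt tRF-60:76-Thr-TGT-2-M2 had 213, 266 and 223 CPM after saline and 275, 327 and 241 CPM after nicotine. Nicotine 3 lay inside the saline range, with a log2 fold change of 0.26 (SE 0.39, limma adjusted p = 0.902). The 18 nt tRF-59:76-Thr-TGT-2-M2 had 123, 181 and 136 CPM after saline and 253, 196 and 163 CPM after nicotine. Nicotine 3 fell between saline 3 and saline 2, so the groups overlapped, with a log2 fold change of 0.47 (SE 0.42, limma adjusted p = 0.811). From Thr-AGT, named after its values were seen, the 22 nt tRF-56:77-Thr-AGT-1 had 45.4, 51.8 and 67.9 CPM after saline and 88.1, 106 and 132 CPM after nicotine. All nicotine values lay above all saline values, with a log2 fold change of 0.97 (SE 0.53, limma adjusted p = 0.679). The 6 tRF-3a names of Thr together had 451, 538 and 519 CPM after saline and 903, 646 and 622 CPM after nicotine, also without overlap, with a log2 fold change of 0.51 (SE 0.30, limma adjusted p = 0.539).

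Ile-AAT and Trp-CCA followed. The 18 nt tRF-60:77-Ile-AAT-1-M2 had 133, 162 and 233 CPM after saline and 506, 123 and 171 CPM after nicotine. Nicotine 1 alone stood out, the other nicotine libraries lay within or below the saline range, and the log2 fold change of 0.36 (SE 0.45) went to -0.24 without nicotine 1. The 17 nt tRF-61:77-Ile-AAT-1-M3 had 8.01, 6.48 and 24.2 CPM after saline and 187, 24.5 and 31.1 CPM after nicotine. Nicotine 1 was again far the highest, and the groups were separated by 24.25 CPM in saline 3 (5 reads) and 24.53 CPM in nicotine 2 (3 reads). It had a log2 fold change of 2.17 (SE 0.78, limma adjusted p = 0.657), and the log2 fold change ran from 1.26 to 2.71 with a library left out. For Trp, which reads the single codon for tryptophan, the 17 nt tRF-59:75-Trp-CCA-1-M6 had 42.7, 71.2 and 48.5 CPM after saline and 242, 65.4 and 23.3 CPM after nicotine. Nicotine 1 was the highest and nicotine 3 the lowest library, and the log2 fold change went from 0.44 to -0.42 without nicotine 1. The 18 nt tRF-58:75-Trp-CCA-1-M5 had 56.0, 51.8 and 48.5 CPM after saline and 110.1, 89.96 and 77.7 CPM after nicotine. Here the saline libraries were close together and all nicotine libraries lay above them, with a log2 fold change of 0.81 (SE 0.55, limma adjusted p = 0.752). A second Trp gene name, tRF-58:75-Trp-CCA-3, had only 5 reads in saline and 4 in nicotine libraries in all, and tRF-57:75-Trp-CCA-1-M5 had 3 reads, all in nicotine 1. The 17 nt tRF-61:77-Asn-GTT-1-M3 had 32.0, 19.4 and 33.9 CPM after saline and 88.1, 24.5 and 15.5 CPM after nicotine. Nicotine 1 was the highest and nicotine 3 the lowest, with a log2 fold change of 0.22 (SE 0.70, limma adjusted p = 0.953).

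Gene copies of a tRNA are often identical in sequence, and how reads were divided among such copies is not stated, so single names are less certain than sums over a parent. By their positions the 17 and 18 nt forms differ by 1 base at the cut. For Phe-GAA (17 nt), Thr-AGT (18 nt) and Trp-CCA (18 nt) 2 names were pooled into a form. The Ile-AAT forms carry the suffixes 1-M3 and 1-M2, and the main Trp-CCA forms 1-M6 and 1-M5. The meaning of these suffixes is not given, so the forms compared may not come from the same gene copies. Their ratio within a library does not depend on the total used for scaling. The 17 nt form took 74.7% ± 7.69 of both forms for Phe-GAA, 59.9% ± 4.15 for Thr-TGT, 44.4% ± 14.3 for Trp-CCA, 37.7% ± 19.1 for Thr-AGT and 13.0% ± 8.54 for Ile-AAT (SD, n = 6). Every library held more of the 17 nt form for Phe-GAA and Thr-TGT and more of the 18 nt form for Ile-AAT, and the longer form led in some libraries and the shorter in others for Trp-CCA and Thr-AGT. For Ile-AAT the 17 nt share was 5.66%, 3.85% and 9.43% after saline and 27.0%, 16.7% and 15.4% after nicotine. All nicotine values were higher, by 13.4 points on average and by 9.71 without nicotine 1 (exact two-sided permutation p = 0.1, adjusted p = 0.5 over 5 tRNAs, not past the threshold). Behind these were 3 of 53, 1 of 26 and 5 of 53 reads in saline and 17 of 63, 3 of 18 and 4 of 26 in nicotine. The groups overlapped for the other 4 tRNAs, and this ratio was chosen after the values were seen.

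**Figure D3:**
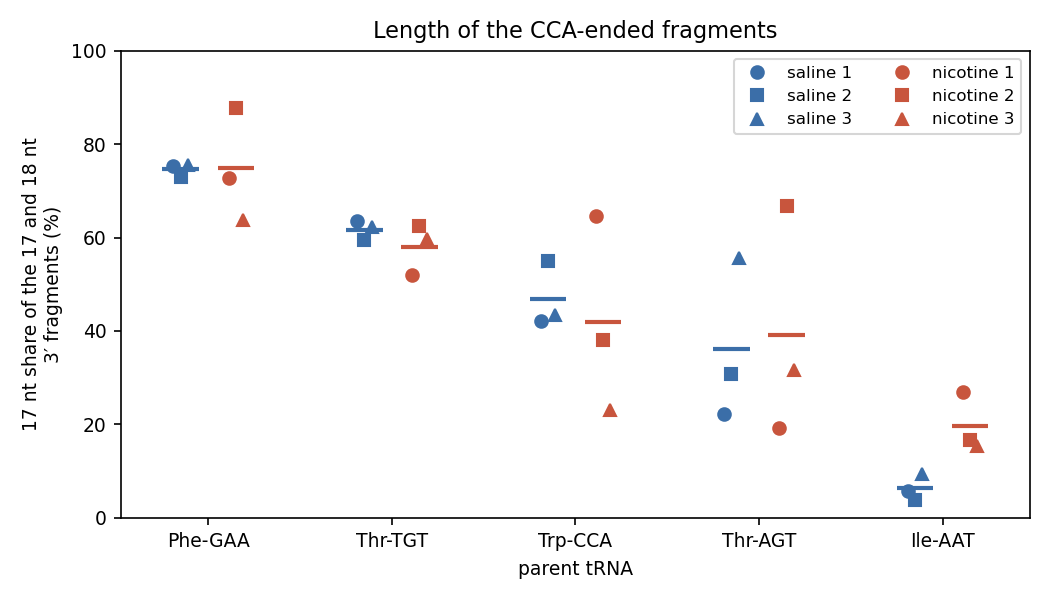
Share (%) of the 17 nt form among the 17 and 18 nt CCA-ended fragments of 5 tRNAs in each library, with bars for group means (n = 3). Phe-GAA and Thr-TGT lie above 50 in every library, and Ile-AAT lies between 3.85 and 27.0, lower in the 3 saline than in the 3 nicotine libraries.

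Trailers, the products of 3' end processing by RNase Z, were listed for Thr, Asp and Asn. The most abundant was tRF-+1:T17-Thr-TGT-1, with 98.7, 246 and 169.7 CPM after saline and 198, 123 and 279.7 CPM after nicotine. The groups overlapped, with a log2 fold change of 0.24 (SE 0.44, limma adjusted p = 0.917). The trailer of Asn-GTT, tRF-+1:T23-Asn-GTT-1, had 138.75, 64.8 and 121 CPM after saline and 253, 139.02 and 241 CPM after nicotine. The groups did not overlap, by a margin far below 1 read, and it had a log2 fold change of 0.98 (SE 0.45, limma adjusted p = 0.657). The Asp trailer tRF-+1:T15-Asp-GTC-2-10-M3 had 48.0, 84.2 and 160.0 CPM after saline and 198, 188 and 264 CPM after nicotine. All nicotine values lay above all saline values, with a log2 fold change of 1.30 (SE 0.46, limma adjusted p = 0.657) and a range of 0.88 to 1.74 with a library left out. A trailer of another Asp gene, tRF-+1:T16-Asp-GTC-2-3, had 24.02, 13.0 and 19.4 CPM after saline and 11.0, 0 and 23.3 CPM after nicotine. Its 4 nicotine reads fell in nicotine 1 (1 read) and nicotine 3 (3 reads). The log2 fold change of -1.54 (SE 1.29, limma adjusted p = 0.788) went to -0.17 without nicotine 2, which had no read. Trailers of the 6 parents did not move one way: 8 of 17 had a higher and 9 a lower mean log2 level in nicotine, against 68 of 92 higher among the other nuclear trailers. After TMM rescaling these were 6 of 17 and 58 of 92. Some of the 9 had no read in a nicotine library, where log2(CPM + 1) depends on the added 1 CPM. Of these, tRF-+1:T17-Asp-GTC-2-7, tRF-+1:T15-Asp-GTC-2, tRF-+1:T15-Thr-CGT-3 and tRF-+1:T18-Thr-TGT-3 had a higher mean CPM in nicotine. For tRF-+1:T14-Asp-GTC-2-10-M3 and tRF-+1:T16-Asp-GTC-2-3 it was lower. Summed, the 17 trailers had 807 CPM ± 252 after saline and 1117 CPM ± 378 after nicotine (SD, 3 libraries each), with overlap.

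Of the 5 trailers listed at several lengths, 4 had 1 leading length. For Thr-TGT-1 the 17 nt form took 63.0% ± 1.93 of the 17, 18 and 19 nt forms, the 18 nt form 28.6% ± 4.57 and the 19 nt form 8.41% ± 4.04 (SD, n = 6). The order was the same in all 6 libraries. For Asp-GTC-2-10-M3 the 15 nt form led in 6 of 6 libraries with 72.5% ± 11.1 over the 14 and 16 nt forms. The 17 nt trailer of Thr-TGT-3 also led its 18 nt form in 6 of 6 libraries, and the 16 nt trailer of Asn-GTT-1-3 its 17 nt form. For Asp-GTC-2-3 no length led, with 44.5% ± 28.5 for 16 nt and 55.5% ± 28.5 for 17 nt, and each was ahead in 2 libraries. All these start at the first base after the mature tRNA, so they differ at the 3' end alone.

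The 5' fragments belonged mainly to Asp. The most abundant of the 60 fragments was the 23 nt tRF-1:23-Asp-GTC-2-M2, with 384, 576 and 509 CPM after saline and 550.5, 466 and 668 CPM after nicotine. The groups overlapped, with a log2 fold change of 0.20 (SE 0.37, limma adjusted p = 0.917). It took 74.1% ± 5.35 of the 8 listed lengths of this 5' end and led in 6 of 6 libraries, while the 24 nt form took 2.56% ± 1.76 (SD, n = 6). The long 32 nt form, tRF-1:32-Asp-GTC-2-M2, had 53.4, 51.8 and 24.2 CPM after saline and 99.1, 57.2 and 109 CPM after nicotine. All nicotine values lay above all saline values, with a log2 fold change of 1.05 (SE 0.58, limma adjusted p = 0.679). The 5 tRF-5c lengths of Asp together had 109, 129.5 and 72.7 CPM after saline and 209, 147 and 186 CPM after nicotine, again without overlap, with a log2 fold change of 0.82 (SE 0.42, limma adjusted p = 0.449). The single tiRNA-5, tiRNA-1:34-Asp-GTC-2-M2, ends 2 bases further on and had 24.02, 19.4 and 33.9 CPM after saline and 22.0, 16.4 and 31.1 CPM after nicotine. Its groups overlapped, and it had no more than 9 reads in any library.

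Ile-AAT and Thr-TGT gave shorter 5' fragments. The 15 nt tRF-1:15-Ile-AAT-1-M3 had 16.01, 25.9 and 38.8 CPM after saline and 66.1, 57.2 and 23.3 CPM after nicotine. Nicotine 3 fell inside the saline range, with a log2 fold change of 0.79 (SE 0.67, limma adjusted p = 0.788). The 15 nt tRF-1:15-Thr-TGT-4 had 32.0, 51.8 and 19.4 CPM after saline and 0, 0 and 38.9 CPM after nicotine. It had no read in nicotine 1 and nicotine 2, which allows up to 3 reads or 33.0 and 24.5 CPM, while nicotine 3 lay inside the saline range. The fitted log2 fold change was -3.27 (SE 1.37, limma adjusted p = 0.657). Its size depends on the added 1 CPM, which is less than 1 read is worth, and it is no bound.

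Internal fragments were listed for Asn and Phe. The names place them across the anticodon loop, at positions 30 to 44 for Asn and 28 to 42 for Phe. The 15 nt tRF-30:44-Asn-GTT-1-M5 had 53.4, 51.8 and 82.4 CPM after saline and 154, 65.4 and 62.2 CPM after nicotine. Nicotine 1 was far the highest, the other nicotine libraries lay within the saline range, and the log2 fold change of 0.48 (SE 0.55) went to 0.061 without nicotine 1. The 14 nt tRF-30:43-Asn-GTT-1-M5 had 3 reads in nicotine 1 and 1 in saline 1. The Phe forms tRF-28:41-Phe-GAA-1-M4 and tRF-29:42-Phe-GAA-1-M4 had at most 33.0 and 44.0 CPM in any library, both in nicotine 1. All other nuclear tRNAs together had 8 internal fragments listed.

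**Figure D4:**
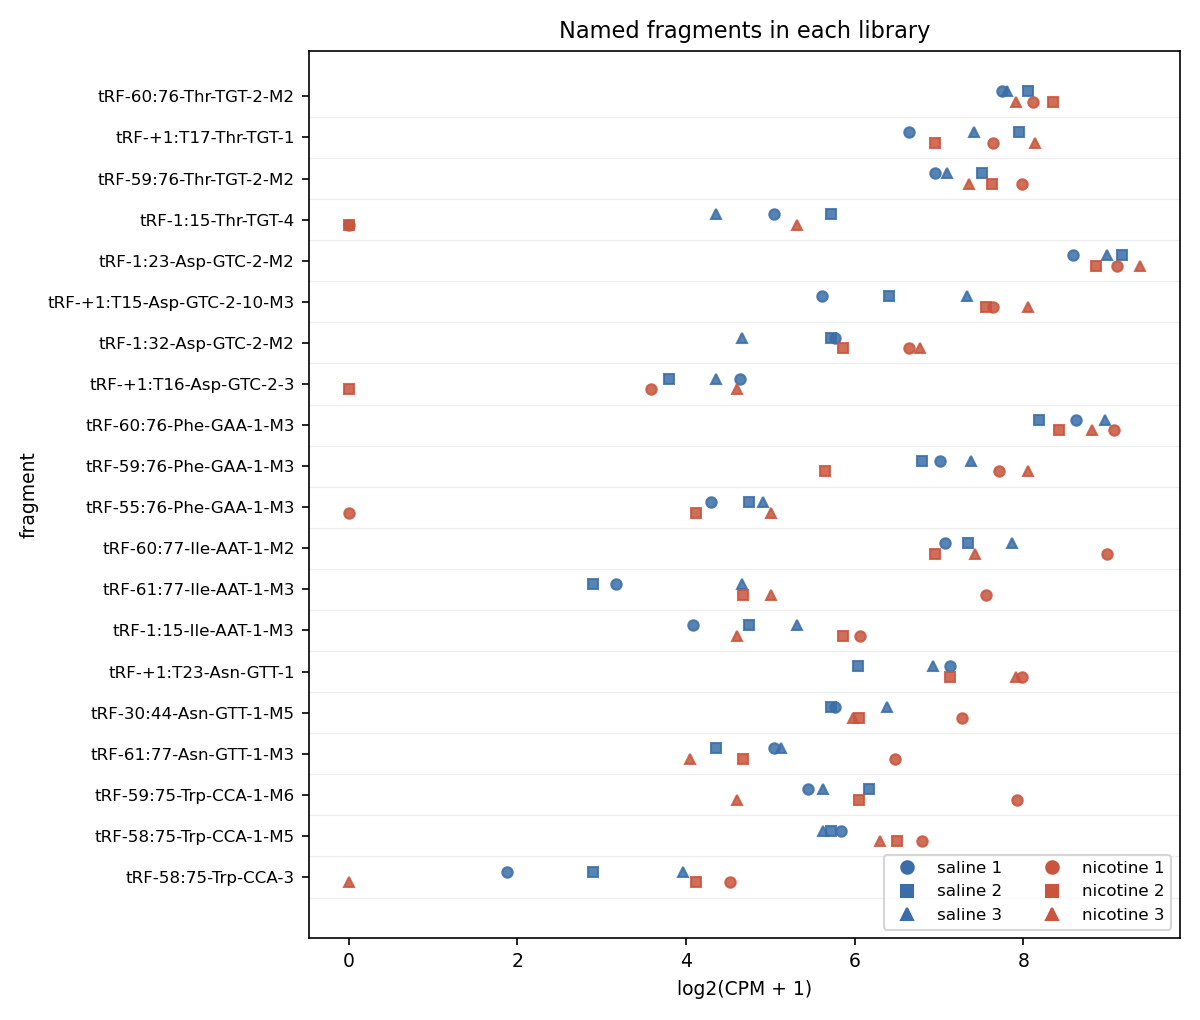
Level of the 20 named fragments in each library as log2(CPM + 1), saline in blue above and nicotine in red below each line, with symbols for the rat numbers. The 23 nt Asp fragment and the 17 nt Phe fragment lie highest, and nicotine 1 (red circle) lies far to the right for the Ile, Asn and Trp fragments of 17 nt.

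Across single fragments none of the 60 passed the test. Of the 60, 58 had at least 1 CPM in at least 3 libraries and were tested among 586 fragments. In limma on log2(CPM + 1), 0 of the 58 and 0.0% of all tested had a Benjamini-Hochberg adjusted p under 0.05, and the smallest adjusted p was 0.657. With an unadjusted p under 0.05, 5 lay higher in nicotine, which was 8.62% of the 58 against 5.12% of all tested, and 1 lay lower, 1.72% against 1.88%. Without nicotine 1 the 5 became 2 of 55 (3.64%, against 3.33% of all tested), and without nicotine 2 they became 7 of 58 (12.1%, against 5.34%). The 5 were tRF-+1:T15-Asp-GTC-2-10-M3, tRF-61:77-Ile-AAT-1-M3, tRF-+1:T23-Asn-GTT-1 and, named after their values were seen, tRF-+1:T16-Asp-GTC-2-10-M3 and tRF-58:75-Thr-CGT-3-M2, and the 1 lower was tRF-1:15-Thr-TGT-4. On the recovered reads edgeR's quasi-likelihood test with TMM and DESeq2 also passed 0, with 1 of the 58 (1.72%) higher and 0 lower at an unadjusted p under 0.05 in each. Of all tested fragments edgeR had 1.37% higher and 3.92% lower at that level, and DESeq2 0.341% and 2.73%. On CPM the groups did not overlap for 11 of the 60 (18.3%), all higher in nicotine, against 12.0% of all 615 fragments higher and 1.46% lower. Among the 11, tRF-60:77-Ile-TAT-1, tRF-1:30-Thr-TGT-2 and tRF-55:76-Thr-TGT-2-M2 had at most 5.34, 9.70 and 10.7 CPM in any saline library. They reached the 21.3 CPM of the list through nicotine alone, so their direction was partly set by the list. After rescaling by TMM, a trimmed mean over fragments, 3 of the 60 (5.0%) were higher without overlap, against 6.02% of the 615, and 0 lower, against 3.74%.

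Over all 60, the share with a higher mean was near that of all fragments. A higher mean log2 level in nicotine was found for 41 of the 60 (68.3%), against 66.0% of the 615. The median log2 fold change was 0.43 for the 60 and 0.32 for the 615 on the deposited CPM. After TMM rescaling the medians were 0.11 and 0.013, and 32 of the 60 (53.3%) were higher, against 51.1% of the 615. Higher means were found for 11 of 18 Thr, 10 of 17 Asp, 7 of 8 Phe, 5 of 7 Ile, 5 of 6 Asn and 3 of 4 Trp fragments. By kind, they were found for 14 of 16 tRF-3a, 8 of 17 tRF-1 and 5 of 7 tRF-5c, where the other nuclear fragments had 66 of 74, 68 of 92 and 15 of 80. For tRF-5b, tRF-3b and tRF-2 the numbers were 4 of 4, 4 of 6 and 4 of 4, against 25 of 33, 42 of 50 and 6 of 8. For tRF-5a and tiRNA-5 they were 2 of 5 and 0 of 1, against 31 of 56 and 7 of 27. The median over the 17 trailers was -0.050 and that over the other 92 0.49, and after TMM rescaling -0.30 and 0.16. Some of the 17 had no read in a nicotine library. The summed CPM of the 17 averaged 807 after saline and 1117 after nicotine, with overlap. The median over the 7 tRF-5c was 0.91 and that over the other 80 nuclear tRF-5c -0.38, and after TMM rescaling 0.60 and -0.66. All but 2 of these 7 were from 1 Asp name, so they share a parent. Some of the 7 reached the 21.3 CPM of the list in nicotine alone, as given above. Fragments of the queuosine-bearing tRNAs Asn and Asp had a median of 0.48 (15 of 23 higher), and those of His and Tyr, which carry it too, 0.54 (28 of 39 higher). Fragments of Asp, a TRDMT1 substrate, had a median of 0.47, and those of the substrates Gly-GCC and Val-AAC 0.083 (25 of 41 higher), which after TMM rescaling were 0.17 and -0.22. The difference between these lists was not tested.

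**Figure D5:**
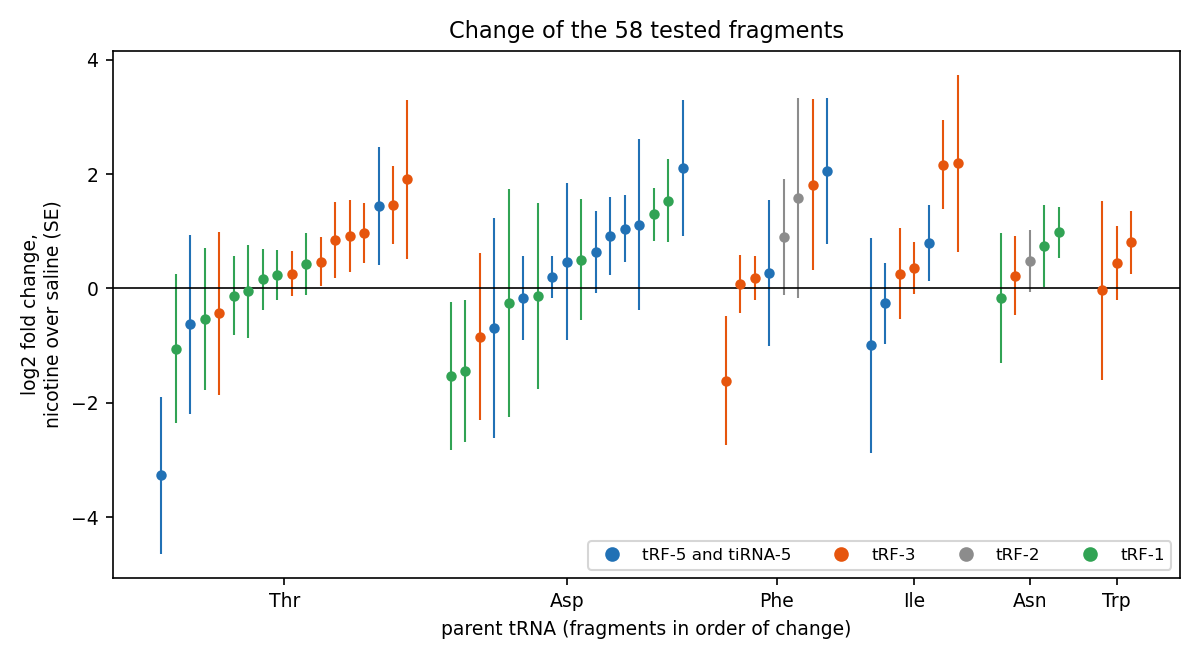
Fitted log2 fold change (nicotine over saline, error bars SE) of the 58 tested fragments, ordered within each parent tRNA and coloured by kind. Of the 58 points 34 lie within 1 SE of 0 and 39 lie above it on the deposited scale, and the lowest is the 15 nt Thr-TGT fragment at -3.27.

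Summed over amino acid and kind, the 60 fragments formed 23 families, of which 22 were tested among 169. None passed in limma (0.0% of all families), and the smallest adjusted p was 0.449. At an unadjusted p under 0.05 in limma, 3 of the 22 were higher (13.6%, against 8.28% of the 169). At that level 1 of the 22 was lower (4.55%, against 0.592% of the 169). The 3 were the trailers of Asp and Asn and tRF-3b of Thr, and the 1 lower was tRF-5a of Thr, which holds a single fragment. The 7 Asp trailers had 93.4, 194 and 286 CPM after saline and 330.3, 245 and 419.6 CPM after nicotine. Nicotine 2 lay between saline 2 and saline 3, with a log2 fold change of 0.90 (SE 0.41, limma adjusted p = 0.449). The 3 Asn trailers had 176, 84.2 and 165 CPM after saline and 308, 179.9 and 279.7 CPM after nicotine. The groups did not overlap, with a log2 fold change of 0.88 (SE 0.40, limma adjusted p = 0.449). The closest values were 176.1 CPM in saline 1 and 179.9 CPM in nicotine 2, where 1 read was worth 8.18 CPM. The 2 tRF-3b of Thr had 56.0, 51.8 and 77.6 CPM after saline and 110.1, 123 and 148 CPM after nicotine. All nicotine values lay above all saline values, with a log2 fold change of 1.04 (SE 0.48, limma adjusted p = 0.449). After TMM rescaling these 3 log2 fold changes were 0.47, 0.45 and 0.61. Under the same rescaling those of Thr tRF-3a, Asp tRF-5c and Thr tRF-5c went from 0.51, 0.82 and 0.92 to 0.077, 0.39 and 0.50. In all, 5 of the 22 families (22.7%) lay higher in nicotine without overlap, against 16.6% of the 169, and 0 lay lower, against 0.0%. They were tRF-1 of Asn, tRF-5c of Asp and tRF-3a, tRF-3b and tRF-5c of Thr. The 2 fragments of Thr tRF-5c reached 21.3 CPM, the lowest maximum of the list, in nicotine libraries alone. The other families named also hold fragments that reached it in nicotine alone, so the list itself favours higher values in nicotine here.

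The remaining large families overlapped between the groups. Log2 fold changes were 0.22 (SE 0.33) for tRF-3a of Phe and 0.12 (SE 0.37) for the 7 trailers of Thr. For Asp tRF-5b the value was 0.24 (SE 0.31). These 3 turned negative after TMM rescaling, to -0.21, -0.31 and -0.19. For Trp tRF-3a the value was 0.71 (SE 0.46), and for Asn tRF-2 0.55 (SE 0.56). For Ile tRF-3a it was 0.63 (SE 0.49), and -0.019 without nicotine 1. The smaller families of Ile, tRF-5a and tRF-3b, had 0.16 (SE 0.59) and 0.26 (SE 0.80). With 3 libraries a group, a missed threshold does not show that levels were equal.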

How the data were processed

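Adapters for small RNA were ligated to total RNA of each rat, and the amplified products were cut from a gel for Illumina NextSeq sequencing, per the labels' protocols. FastQC, cutadapt and Bowtie are named in the submitters' processing notes with no version. Neither a genome build nor the tRNA annotation is given in the sources used here. The authors deposited CPM, and where 2 of the 6 files have no unit in the header they were read as CPM from their values. Every value was a whole multiple of 1 read within 0.001 reads (100% in each library), so reads and totals were recovered. Which reads the total holds is not stated. Replicate libraries were not duplicates by their read counts (chi-square per degree of freedom 13.5 to 30.2).

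Kinds were assigned from the position, length and prefix in the fragment name. Limma 3.58.1 (trend, robust) in R 4.3.3 was run two-sided on log2(CPM + 1), since the files hold CPM, after a filter of at least 1 CPM in 3 or more libraries, and p was adjusted after Benjamini and Hochberg over the whole table. Recovered reads were tested with edgeR 4.0.16 and DESeq2 1.42.0 as alternatives. Sums and shares were compared by exact permutation in scipy 1.17.1. The limma script was tested on simulated data.

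Named were the 3 fragments of highest mean CPM per amino acid, the 3 of smallest p per direction, and families with at least 5% of their amino acid's CPM. Other fragments with values were chosen after these were seen. Members and lists were chosen with earlier results of these data known. Replicates are numbered rats.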

Additional observations from a re-analysis of the deposited data

How the results depend on the processing

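No count of passing fragments or families rose above 0 under TMM rescaling, pseudocounts of 0.5 and 10 CPM, no filter, the filter at 10 CPM, edgeR or DESeq2. With a library left out, 0 to 5 fragments and 0 to 2 families of the whole table passed, the highest counts without nicotine 3, and under the replicate block 1 fragment and 0 families; none of them came from the 6 parents. Rat numbers gave no pairing in the labels. Deviations of same-numbered libraries correlated at 0.087, 0.109 and 0.161, each higher than with any other number, a hint from the data alone, and the block changed no call on the 6 parents.

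After TMM rescaling the log2 fold change changed sign to -0.091 (tRF-61:77-Asn-GTT-1-M3), -0.12 (tRF-1:23-Asp-GTC-2-M2), -0.14 (tRF-60:76-Phe-GAA-1-M3), -0.25 (tRF-59:76-Phe-GAA-1-M3), -0.065 (tRF-60:76-Thr-TGT-2-M2), -0.084 (tRF-+1:T17-Thr-TGT-1), -0.20 (Asn tRF-3a), -0.19 (Asp tRF-5b), -0.15 (Ile tRF-3b), -0.27 (Ile tRF-5a), -0.21 (Phe tRF-3a) and -0.31 (Thr tRF-1). In edgeR with TMM the log2 fold change changed sign to -0.010 (tRF-61:77-Asn-GTT-1-M3), -0.17 (tRF-1:23-Asp-GTC-2-M2), -0.27 (tRF-60:76-Phe-GAA-1-M3), -0.071 (tRF-59:76-Phe-GAA-1-M3), -0.11 (tRF-60:76-Thr-TGT-2-M2), -0.098 (tRF-+1:T17-Thr-TGT-1), 0.30 (tRF-58:75-Trp-CCA-3), -0.10 (Asp tRF-5b), -0.16 (Ile tRF-3b), -0.017 (Ile tRF-5a), -0.15 (Phe tRF-3a) and -0.16 (Thr tRF-1). In DESeq2 the log2 fold change changed sign to -0.12 (tRF-1:23-Asp-GTC-2-M2), -0.20 (tRF-60:76-Phe-GAA-1-M3), -0.010 (tRF-59:76-Phe-GAA-1-M3), -0.055 (tRF-60:76-Thr-TGT-2-M2), -0.056 (tRF-+1:T17-Thr-TGT-1), 0.38 (tRF-58:75-Trp-CCA-3), -0.0042 (Asn tRF-3a), -0.17 (Asp tRF-5b), -0.22 (Ile tRF-3b), -0.051 (Ile tRF-5a), -0.22 (Phe tRF-3a) and -0.23 (Thr tRF-1). In edgeR without scaling the log2 fold change changed sign to 0.68 (tRF-58:75-Trp-CCA-3). With a pseudocount of 10 CPM the log2 fold change changed sign to 0.24 (tRF-58:75-Trp-CCA-3). With each library left out in turn it ran across 0, from -0.48 to 0.73 for Asn tRF-3a, from -0.019 to 1.08 for Ile tRF-3a, from -0.14 to 0.65 for Ile tRF-3b, from -0.33 to 0.81 for Ile tRF-5a, from -0.24 to 0.41 for Thr tRF-1, from -0.11 to 0.55 for tRF-+1:T17-Thr-TGT-1, from -0.85 to 1.41 for tRF-58:75-Trp-CCA-3, from -0.42 to 1.24 for tRF-59:75-Trp-CCA-1-M6, from -0.38 to 0.82 for tRF-59:76-Phe-GAA-1-M3, from -0.018 to 0.37 for tRF-60:76-Phe-GAA-1-M3, from -0.24 to 0.78 for tRF-60:77-Ile-AAT-1-M2 and from -0.48 to 0.73 for tRF-61:77-Asn-GTT-1-M3. The Phe sum differed by -28.1 CPM after TMM rescaling, and the Ile sum by -12.8 to 304 CPM with a library left out. Within the 6 parents the difference in kind shares without the 23 nt Asp fragment was 0.475 points for tRF-5b, -0.742 for tRF-3a and -0.254 for tRF-1, and in CPM tRF-5b differed by 107. With a library left out it ran from -3.27 to 4.396 points for tRF-3a, -3.33 to 3.15 for tRF-1 and -0.192 to 1.07 for tRF-2. Against the other nuclear fragments, the differences with a library left out ran from 1.98 to 2.62 (tRF-5a), 13.6 to 15.5 (tRF-5b), -79.3 to -77.1 (tRF-5c), -6.04 to -5.31 (tiRNA-5), 39.5 to 42.1 (tRF-3a), 3.23 to 3.64 (tRF-3b), 2.38 to 2.89 (tRF-2), 19.1 to 21.3 (tRF-1) points, where 5 libraries cannot go below an exact permutation p of 0.0625; without the 23 nt Asp fragment tRF-5b differed by 0.586. Without glycine they were -1.42 (tRF-5a), 11.4 (tRF-5b), -23.8 (tRF-5c), -21.2 (tiRNA-5), 29.4 (tRF-3a), 1.29 (tRF-3b), 2.50 (tRF-2), 1.77 (tRF-1) points, none past the threshold after adjustment. The 17 nt share difference ran from -6.30 to 5.66 points for Phe-GAA, -10.8 to 12.9 for Thr-AGT and -16.3 to 4.54 for Trp-CCA. Fragments of the 6 parents without overlap numbered 3 after TMM rescaling and 12 to 19 with a library left out (17 higher and 1 lower without saline 2, 19 higher without nicotine 2, 16 higher and 3 lower without nicotine 3), beside 14.3% to 22.4% of the 615 higher and 2.93% to 6.50% lower, where fewer libraries give more gaps, both chosen after seeing the data. For the sign changes the cause was not tested. Single fragments with few reads have too little depth for small changes to be detectable.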
